A study of Homo sapiens with 12 samples.

Results

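The CC and CXC chemokines described here are 7 genes, CCL2, CCL3 and CCL20 of the CC class and CXCL1, CXCL2, CXCL3 and CXCL8 of the CXC class. They were chosen from the authors' list of genes called different after stimulation with LPS and lactate, so that each of them was called is how the set was made and not a finding. The limit on the false discovery rate given in the study's methods is far looser than is customary, which weakens what a call says of a single gene. The set is 7 of the 95 called genes with a gene ontology (GO) annotation, which are 0.508% of the 18704 annotated genes.

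RNA of endothelial cells (ECs) was sequenced in 4 groups of 3 samples, 12 in all. NC cells received no stimulation, and NC-L-L cells received LPS for 16 h and lactate for 3 h. In siENO1 cells the glycolytic enzyme enolase 1 (ENO1) was silenced with siRNA, and siENO1-L-L cells received LPS and lactate for the same times after that silencing. By their labels the cells are EA.HY926, an immortal hybrid of umbilical vein endothelium and a lung carcinoma line, whereas legends of the study's figures speak of HUVECs, which are primary umbilical vein ECs. If the labels hold, the line limits how far the cells stand for primary endothelium. Nothing in the labels says whether the replicates were separate cultures.

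The values used are the gene lists and gene numbers of 2 tables, a GO table that compares NC-L-L with NC and a KEGG pathway table that compares siENO1-L-L with NC-L-L. Each term comes with the symbols of its called genes, their number and the number of annotated genes in the term. Neither table has a value for any sample, so the level of each chemokine, its direction of change, the sequencing depth and the spread between replicates are unknown. No difference between groups was tested, and the comparisons below are of annotation, sequence, position or membership in gene lists. Those of GO terms are among called genes, whereas others take in genes that were not called.

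Chemokines are small secreted proteins that bind G protein-coupled receptors on leukocytes and draw them along a gradient. The position of the first cysteines in the mature protein separates the CC class, which mostly attracts monocytes, lymphocytes and eosinophils, from the CXC class, whose members with an ELR motif attract neutrophils and act on vessel growth. Activated endothelium releases chemokines and holds them on its surface, where rolling leukocytes meet them.

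The fixed list of chemokine ligands has 48 genes, of which 7 were called, 3 of 28 CC ligands, 4 of 17 CXC ligands and 0 of 3 XC and CX3C ligands. Each called ligand is in the set, so the list adds no further gene, and nothing is read from its count. Of 23 chemokine receptors 0 were among the called genes, and with 0.508% of all annotated genes called, a count of 0 in a list of this size, or in the 3 XC and CX3C ligands, is near the background. A gene outside the called list may have been unchanged, below detection or without a GO annotation, and these cannot be told apart. CCL2, known as MCP-1, acts through CCR2, CCL3 (MIP-1 alpha) through CCR1, and CCL20 through CCR6. CXCL1, CXCL2 and CXCL3 are the GRO chemokines and act through CXCR2, and CXCL8, or interleukin-8, acts through CXCR1 and CXCR2.

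To show what the genes share in sequence, the RefSeq promoters (GRCh38.p14) were read. Of the 7 genes 6 were matched in the promoter table used, all but CCL2. The stretches below run 5′ to 3′ over the 140 bases before the RefSeq start. Capitals mark a match to the kappaB consensus (in CXCL8 to a looser form of it), to the AP-1 letters TGANTCA or to the TATA box letters TATAAA, on either strand.
CXCL1 (chr4:73869253-73869392, plus strand): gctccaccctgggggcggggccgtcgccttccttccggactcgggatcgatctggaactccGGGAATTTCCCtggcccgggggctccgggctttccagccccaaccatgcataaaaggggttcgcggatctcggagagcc
CXCL2 (chr4:74099196-74099335, minus strand): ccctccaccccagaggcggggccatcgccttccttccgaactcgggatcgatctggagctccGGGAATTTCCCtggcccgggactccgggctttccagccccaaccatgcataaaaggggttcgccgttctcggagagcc
CXCL3 (chr4:74038690-74038829, minus strand): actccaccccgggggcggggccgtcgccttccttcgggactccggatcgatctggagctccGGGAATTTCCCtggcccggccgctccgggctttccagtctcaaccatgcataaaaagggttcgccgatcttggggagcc
CXCL8 (chr4:73740429-73740568, plus strand): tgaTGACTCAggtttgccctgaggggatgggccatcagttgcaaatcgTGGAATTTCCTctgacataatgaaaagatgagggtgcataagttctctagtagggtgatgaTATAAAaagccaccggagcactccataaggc
CCL20 (chr2:227813702-227813841, plus strand): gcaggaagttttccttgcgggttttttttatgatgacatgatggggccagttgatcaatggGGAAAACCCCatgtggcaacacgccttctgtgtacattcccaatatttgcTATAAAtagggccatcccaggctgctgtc
CCL3 (chr17:36090144-36090283, minus strand): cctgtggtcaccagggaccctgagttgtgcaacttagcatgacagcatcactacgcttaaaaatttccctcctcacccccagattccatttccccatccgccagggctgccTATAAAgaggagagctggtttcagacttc

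NF-kappaB, the transcription factor family that LPS activates, binds kappaB sites, and AP-1 is the dimer of FOS and JUN proteins. The kappaB consensus was matched in 4 of the 6 promoters, those of CXCL1, CXCL2, CXCL3 and CCL20. The promoters of CXCL1, CXCL2 and CXCL3 are much alike, so their matches are not separate cases. Of 27303 promoters of the same 300 bases in the reference, 1562 held a match (5.7%), and of 64 promoters of other called genes 12 did (18.8%). In CXCL1 and CXCL3 the match on the plus orientation began at position -79, and in CXCL2 at position -78. The matches on the opposite strand overlap these, since the stretch reads nearly alike on both strands. CXCL1, CXCL2 and CXCL3 share ctccGGGAATTTCCCtggcccgg, an identical run of 23 bases around the match. In CCL20 the match lay on the minus orientation from position -79 to -70. In the looser consensus the first base and 1 more inner base were freed, and CXCL8 was added from position -92 to -83. Thus 5 of the 6 promoters matched, against 31.4% of the reference promoters and 40.6% of those of other called genes. CXCL1, CXCL2, CXCL3 and CCL20 gained further looser matches, which are not in capitals above. Among them is 1 from position -54 to -45 in each of CXCL1, CXCL2 and CXCL3. The AP-1 letters were found in CXCL8 alone, from position -137 to -131, in 7.7% of the reference promoters and in 14.1% of those of other called genes. TATAAA was found in CXCL8, CCL20 and CCL3, from position -31 or -29, in 12% of the reference promoters and in 28.1% of those of other called genes. The patterns, the looser one included, were written after promoters had been seen, so the counts are descriptions of letters and do not show that a factor binds there.

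**Figure D1:**
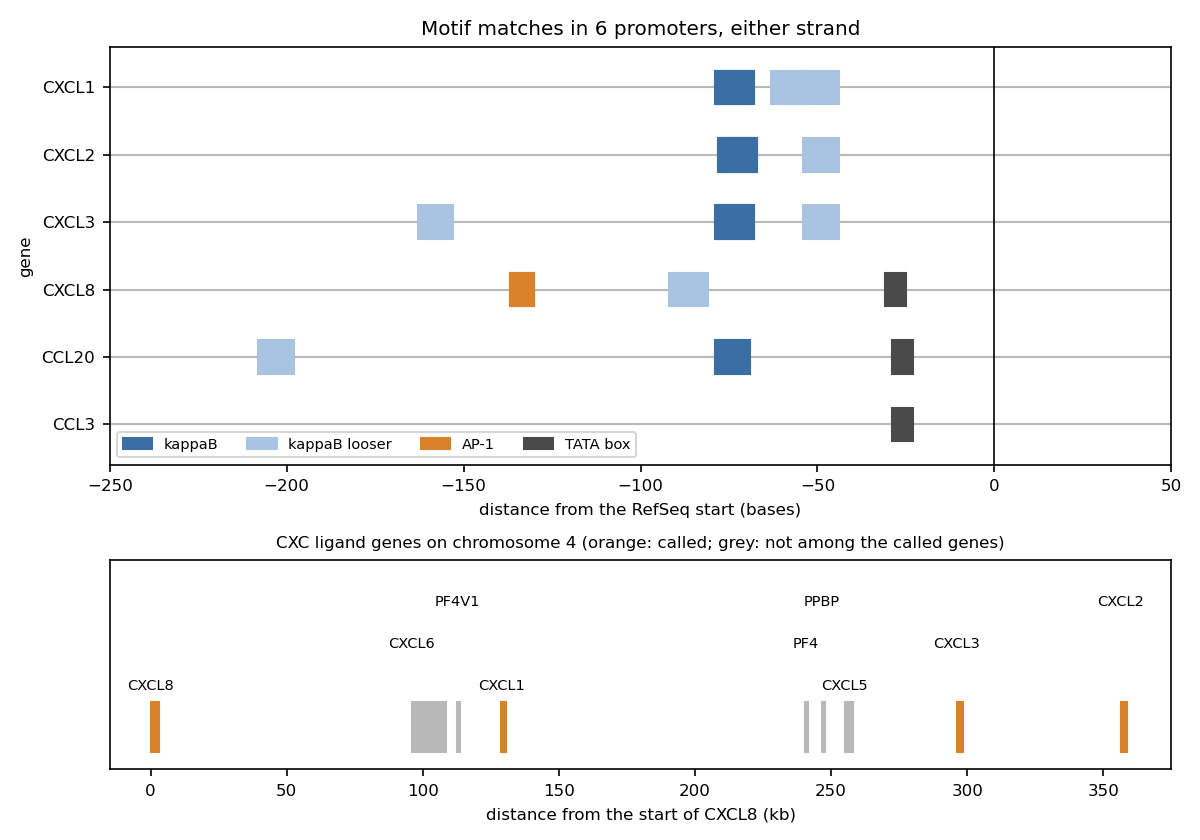
The upper panel marks motif matches by distance in bases from the RefSeq start in 6 promoters, and the lower panel places the CXC ligand genes of chromosome 4 by distance in kb from the start of CXCL8. The matches of CXCL1, CXCL2, CXCL3 and CCL20 to the kappaB consensus itself lie between positions -79 and -68. Of the 9 ligand genes in the lower panel, the 4 marked as called are the CXC members of the set, which was made from called genes.

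The promoters of the GRO genes are alike beyond the motif. Over the whole 300 bases, identity of aligned bases was 87.0% for CXCL1 and CXCL3, 83.6% for CXCL2 and CXCL3 and 83.5% for CXCL1 and CXCL2. Among the other 12 pairs it reached at most 62.8%, for CCL20 and CCL3. The coding sequences showed the same grouping. CXCL2 and CXCL3 were identical at 303 of 321 aligned bases (94.4%), CXCL1 and CXCL2 at 300 (93.5%) and CXCL1 and CXCL3 at 291 (90.7%). The other 18 pairs lay between 58.1% and 63.6%, or between 52.9% and 59.8% when identical bases were divided by the length of the shorter coding sequence, which left the GRO pairs unchanged. No value for unrelated coding sequences was computed, so no order is read among those 18 pairs.

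Such likeness bears on how reads are assigned to a gene. Each gene's protein-coding transcript with the longest coding sequence in GENCODE v29 was cut into every window of 150 bases, which is as long as a read. Of these windows 0 occurred without mismatch in another gene, from 0 of 592 windows for CCL2 to 0 of 1556 for CXCL8. The other chemokine ligand genes of the fixed list were then searched for the longest exact stretch in common, 45 for each gene, since 2 listed ligands, CCL3L3 and CCL4L1, were not found in GENCODE v29. It was 97 bases for CXCL2 and CXCL3, and 178 bases when all annotated transcripts of both were taken, so windows of read length are shared there outside the transcripts chosen. CXCL1 shared up to 77 bases with CXCL2, and CCL3 up to 83 bases with CCL3L1, a nearby copy of CCL3 that was not among the called genes. CCL2, CCL20 and CXCL8 shared at most 23, 14 and 18 bases, and at most 23, 17 and 18 with all annotated transcripts. How the authors' counting treated reads with several matches is not given in the sources used here.

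In GENCODE v29 on GRCh38, the 4 CXC genes lie together on chromosome 4. CXCL8 (ENSG00000169429) is on the plus strand at chr4:73740506-73743716, CXCL1 (ENSG00000163739) on the plus strand at chr4:73869393-73871242, CXCL3 (ENSG00000163734) on the minus strand at chr4:74036589-74038807 and CXCL2 (ENSG00000081041) on the minus strand at chr4:74097035-74099293. From the start of CXCL8 to the end of CXCL2 the cluster spans 359 kb and holds 9 chemokine ligand genes. Between the called genes lie CXCL6, PF4V1, PF4, PPBP and CXCL5, the 5 that were not among the called genes. The 4 called ones are the CXC members of the set, which was made from called genes. PF4 and PPBP are known as platelet chemokines, and CXCL5 and CXCL6 as further neutrophil attractants that act through CXCR2. The CC genes are scattered. CCL2 (ENSG00000108691) is on the plus strand at chr17:34255218-34257203, and CCL3 (ENSG00000277632) lies 1831 kb away on the minus strand at chr17:36088256-36090169. Within 1 Mb, CCL2 has 5 other ligand genes and CCL3 has 9, of which 0 were called. With 0.508% of all annotated genes called, a count of 0 in groups this small is near the background. The same holds for the 5 genes of chromosome 4 that were not called, so no contrast between the regions is read. CCL20 (ENSG00000115009), on the plus strand at chr2:227805739-227817564, has no other ligand gene within 1 Mb. Positions are those of the annotation and not of the authors.

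The question put to the GO table was which terms the chemokines share and which they hold alone. Of its 1218 terms, 127 held at least 1 of the 7 chemokines. Of the 127, 85 held 1 chemokine, 21 held 2, 6 held 3, 5 held 4, 2 held 5, 2 held 6 and 6 held all 7. These numbers depend on the terms taken. With at least 3 called genes per term, 54 terms held a chemokine and 19 held 1 alone, and with biological processes only, 3 held all 7. By class, over all terms, 85 terms held CC chemokines only, 23 CXC chemokines only and 19 members of both classes.

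All 7 were in chemokine activity, chemokine-mediated signaling pathway, neutrophil chemotaxis, inflammatory response, extracellular space and extracellular region. Chemokine activity, the function of the family itself, had 7 called genes of 47 annotated, and the chemokines were all of them. That follows from how the set was made. In chemokine-mediated signaling pathway 8 of 68 annotated genes were called, the 8th being GPR17, an orphan G protein-coupled receptor. In neutrophil chemotaxis 8 of 80 were called, with IL1B, the cytokine interleukin-1 beta, beside the chemokines. This term includes the CC members as well as the CXC ones, although the CC class is better known for other leukocytes. The broader terms hold the chemokines among many other genes. Inflammatory response had 21 called genes of 390, of which the chemokines were 33.3%. They were 25% of the 28 called genes in extracellular space and 21.2% of the 33 in extracellular region.

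**Figure D2:**
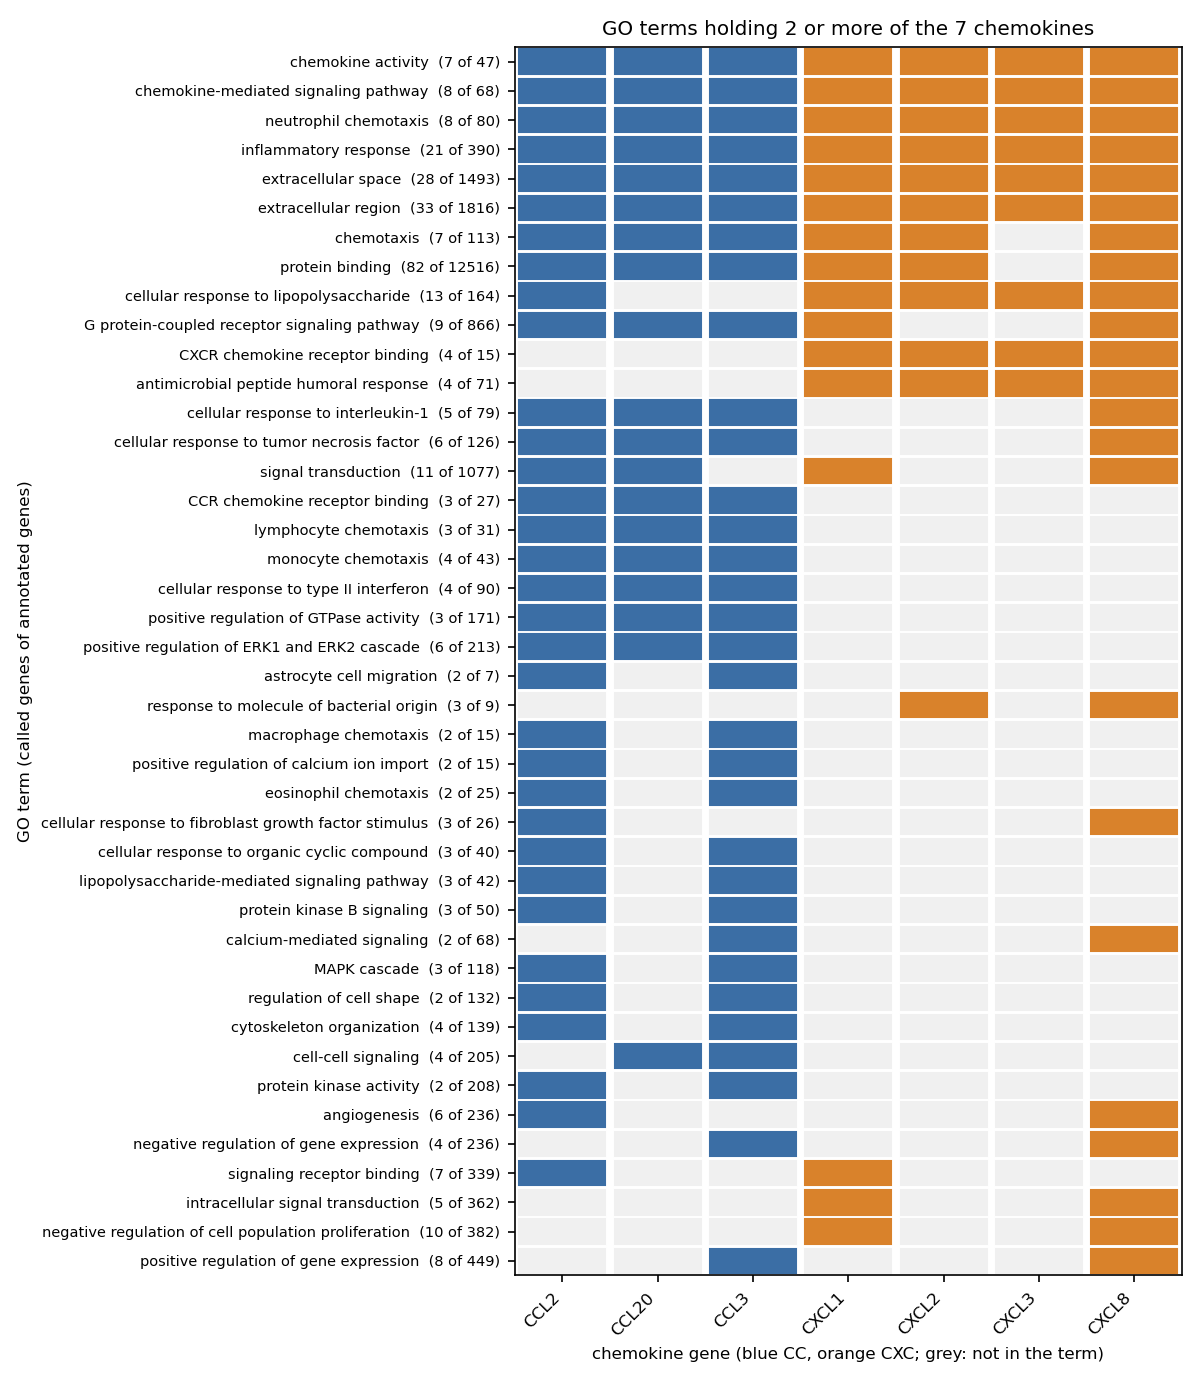
Each line is 1 of the 42 GO terms that hold at least 2 of the 7 chemokines, with its called and annotated genes in brackets, and each column is a chemokine, filled blue (CC) or orange (CXC) where the term holds it. The 6 terms at the top hold all 7, and below them blocks of CC members only and of CXC members only can be seen.

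Several terms lacked single members. Chemotaxis held 7 called genes of 113 annotated, SERPIND1 (heparin cofactor II, a thrombin inhibitor) and 6 chemokines, without CXCL3. Protein binding, which covers 12516 annotated genes and 82 of the called ones, also held the 6 without CXCL3. Cellular response to lipopolysaccharide held 13 called genes of 164, among them CCL2 and the 4 CXC chemokines. CCL3 and CCL20 were not in this term, though CCL3 was in the smaller lipopolysaccharide-mediated signaling pathway with CCL2 and IL1B (3 of 42). G protein-coupled receptor signaling pathway held 9 of 866, with CCL2, CCL3, CCL20, CXCL1 and CXCL8 but not CXCL2 or CXCL3. The last omissions concern the term as annotated, since both act on a receptor of this kind.

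The CXC class was set apart by 2 terms that held its 4 members and no other called gene. CXCR chemokine receptor binding had 4 of its 15 annotated genes called (26.7%). It restates the class itself, and each called ligand is in the set, so what it holds largely follows from how the genes were chosen. The other term, the humoral response through antimicrobial peptides, had 4 of 71. CXCL2 and CXCL8 were in response to molecule of bacterial origin with TNFAIP3 (A20, an inhibitor of NF-kappaB), 3 of 9 annotated genes. CXCL1 and CXCL8 shared negative regulation of cell population proliferation, with 10 called genes of 382.

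The CC class was set apart by 6 terms that held CCL2, CCL3 and CCL20 and no CXC member. CCR chemokine receptor binding had 3 called genes of 27, lymphocyte chemotaxis 3 of 31 and positive regulation of GTPase activity 3 of 171, and in these the CC chemokines were the only called genes. The receptor term restates the class here too, so what it holds largely follows from the choice of genes. Monocyte chemotaxis had 4 of 43, with IL6, and cellular response to type II interferon 4 of 90, with GBP5, an interferon-induced GTPase. Positive regulation of ERK1 and ERK2 cascade had 6 of 213, with ICAM1 (an adhesion molecule for leukocytes), IL1A and the nucleotide receptor P2RY6. CCL2 and CCL3 shared a further 11 terms that held no other chemokine, among them macrophage chemotaxis (2 of 15), eosinophil chemotaxis (2 of 25), positive regulation of calcium ion import (2 of 15) and astrocyte cell migration (2 of 7).

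CXCL8 and CXCL1 also had terms that they shared with CC members but not with CXCL2 or CXCL3. CXCL8 joined CCL2, CCL3 and CCL20 in cellular response to interleukin-1 (5 called genes of 79, with ZC3H12A, the RNase Regnase-1) and in cellular response to tumor necrosis factor (6 of 126, with ZC3H12A and FOS). With CCL2 it was in angiogenesis, which had 6 called genes of 236, the others being ANGPTL4, ESM1, PTGS2 and ZC3H12A. With CCL3 and no other called gene it was in calcium-mediated signaling, 2 of 68. CXCL1 joined CCL2 in signaling receptor binding, 7 of 339, and both CXCL1 and CXCL8 were with CCL2 and CCL20 in signal transduction, 11 of 1077.

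**Figure D3:**
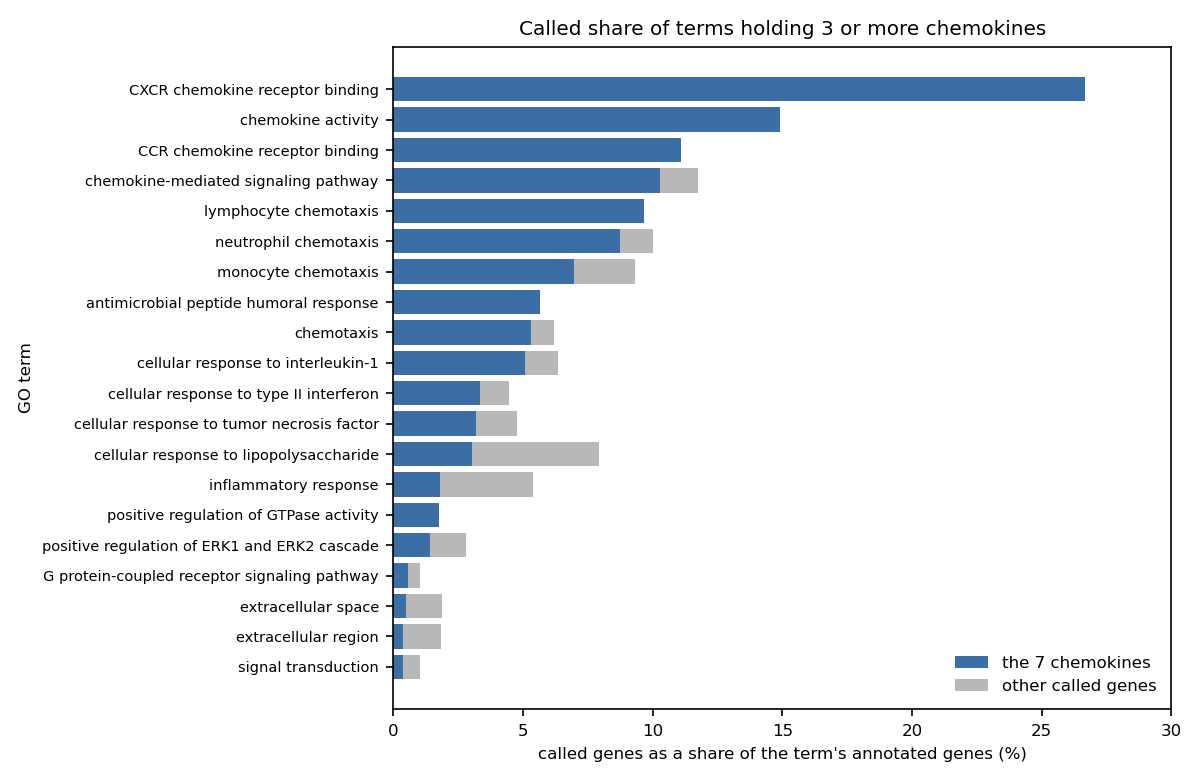
Bars give the called genes of each GO term as a percentage of its annotated genes, split into the 7 chemokines (blue) and other called genes (grey), for the terms that hold at least 3 chemokines other than protein binding. CXCR chemokine receptor binding reached 26.7% and chemokine activity 14.9%, both through chemokines only. Over all annotated genes the called share was 0.508%. The set was made from called genes of this family, so high shares in the family's own terms follow from the choice.

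The number of terms differed widely among the 7. CCL3 had 69 terms, CCL2 56, CXCL8 35, CCL20 26, CXCL1 22, CXCL2 12 and CXCL3 9. The median over the 7 was 26, against 19 over all 95 called genes, whose numbers ran from 1 to 96. Only 4 called genes had more terms than CCL3, the first being IL1B with 96, whereas 79 had more than CXCL3. The number of terms follows how much is recorded for a gene and is no measure of its level or its part in the response.

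Terms without another chemokine were 37 of the 69 for CCL3 (53.6%), 23 of 56 for CCL2 (41.1%), 12 of 35 for CXCL8 (34.3%), 7 of 26 for CCL20 and 6 of 22 for CXCL1. CXCL2 and CXCL3 had 0 such terms, so that each of their terms held another of the 7. The terms held alone were often small. Their median size was 20.5 annotated genes for CXCL8, 22 for CCL20, 28 for CCL3, 41 for CCL2 and 109 for CXCL1. In 65 of the 127 terms the chemokines were the only called genes, and 52 of these held 1 chemokine.

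**Figure D4:**
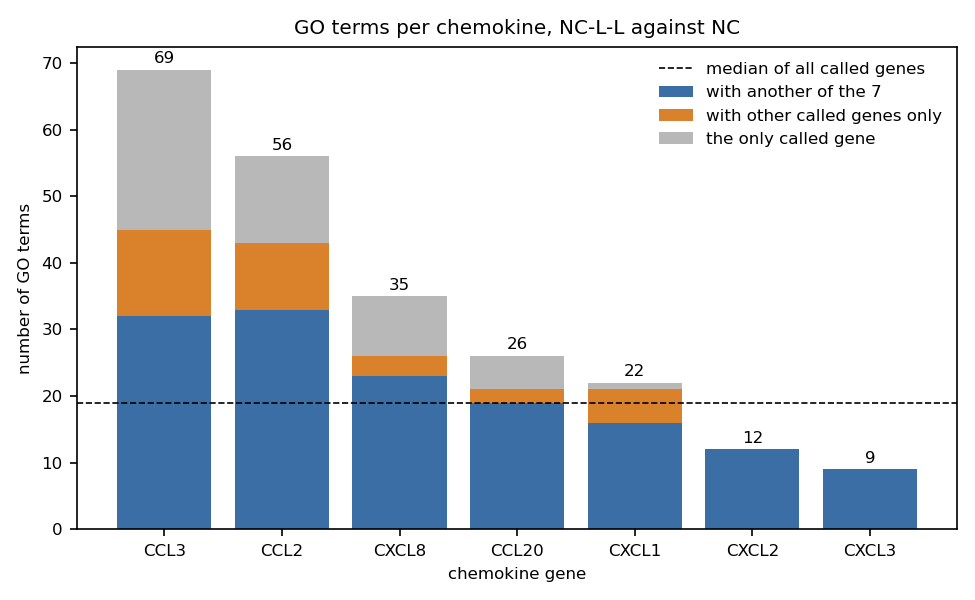
Bars count the GO terms of each chemokine, split into terms shared with another of the 7 (blue), terms shared with other called genes only (orange) and terms in which it is the only called gene (grey), and the dashed line is the median of 19 terms over all called genes. CCL3 has 69 terms and CXCL3 has 9.

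The smallest terms held alone name what is recorded for each chemokine. For CCL3 they were CCR1 chemokine receptor binding, granulocyte chemotaxis and positive regulation of natural killer cell chemotaxis, each with 5 annotated genes. For CCL2 they were negative regulation of vascular endothelial cell proliferation (5 annotated genes), CCR2 chemokine receptor binding (6) and positive regulation of NMDA glutamate receptor activity (6), tied in size with positive regulation of apoptotic cell clearance (6, with C3). CCL2 alone was also in positive regulation of endothelial cell apoptotic process, with 17 annotated genes. For CCL20 they were CCR6 chemokine receptor binding (10), T cell migration (10) and its positive regulation (19). For CXCL8 they were regulation of entry of bacterium into host cell (5), negative regulation of cell adhesion molecule production (6) and negative regulation of G protein-coupled receptor signaling pathway (13). In each of these terms except apoptotic cell clearance the chemokine was the only called gene. For CXCL1 they were tertiary granule lumen (55, with CTSS, LRG1 and METTL7A), enzyme activator activity (60) and specific granule lumen (62, with LRG1 and LRRC7). Tertiary and specific granules are neutrophil stores, so the annotation of CXCL1 carries records from cells other than ECs.

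The overlap of terms between members was measured by the Jaccard index, the terms shared divided by the terms held by either gene. Over the 21 pairs the median was 0.245. CXCL2 and CXCL3 came first at 0.750, with 9 shared terms of 12, and the 9 are all the terms of CXCL3. CXCL1 and CXCL2 followed at 0.478 (11 of 23) and CXCL1 and CXCL3 at 0.409 (9 of 22), although with terms of 3 or more called genes only, CXCL1 and CXCL3 (0.450) came after 7 other pairs. The lowest was 0.083, for CCL3 and CXCL3, which shared the 6 terms common to all 7. Within the CXC class the median of 6 pairs was 0.383, within the CC class the median of 3 pairs was 0.281, and across classes the median of 12 pairs was 0.169. With terms of 3 or more called genes only, these medians were 0.523, 0.514 and 0.280, so that the classes then hardly differed from each other. CCL2 and CCL3 shared the most terms of any pair, 28, which are 50% of those of CCL2 and 40.6% of those of CCL3, yet reached only 0.289 because both have many. CXCL8 was nearest to CXCL1, at 0.357, and CCL20 to CCL2, at 0.281. The index depends on the number of terms of both genes, and annotation copied between related genes raises it.

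Among the other 88 called genes, the 10 whose terms were most like those of the chemokines were C3, SERPIND1, TNIP3, C1S, IL11, IL1A, IL32, ANGPTL4, LRG1 and IL1B, by the mean Jaccard index with the 7. The list depends on the terms taken, since 5 of the 10 remained with biological processes only and 5 with terms of at most 500 annotated genes. The index was 0.105 for C3, the central complement component, and 0.073 for IL1B. Both values are means over the 7, so they are not set against single pairs of chemokines. By single pairs, C3 came nearest to CXCL1, at 0.146. Each chemokine had its highest index with another of the 7, from 0.281 to 0.750. The highest index of each chemokine with a called gene outside the 7 ran from 0.093 to 0.176. The 7 were chosen as 1 gene family and share 6 terms, so a higher index among them follows from the choice and is not a finding. IL1B was in 20 of the 127 chemokine terms, IL1A in 14 and C3 in 11. For CXCL2 and CXCL3 the nearest other gene was TNIP3, an inhibitor of NF-kappaB activation, at 0.176 and 0.133.

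Other genes of the same response were counted from fixed lists. Of 14 cytokines 6 were called, IL1A, IL1B, IL6, IL11, LIF and CSF3. Of 14 NF-kappaB subunits and inhibitors 4 were called, RELB, NFKB2, NFKBIZ and TNFAIP3. Of 11 adhesion molecules through which endothelium binds leukocytes, ICAM1 was the 1 called, and of 14 genes of LPS sensing 0 were. The share over all annotated genes was 0.508%, so a count of 0 of 14 is near the background, and the lists were chosen with earlier results known. The cell type could not be checked by level. Of 6 endothelial, 3 epithelial and 3 leukocyte markers 0 were among the called genes, which says nothing of whether they were expressed. Outside these short lists, and picked after the values were seen, the called genes included ITGAL and IKZF1, known from leukocytes, and LYVE1 and ESM1, known from endothelium.

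For the silencing of ENO1 under LPS and lactate, the KEGG table lists 31 pathways and 14 called genes of 7958 annotated ones (0.176%). Of the 7 chemokines 0 were among the 14, and so 0 of the 31 pathways held one. Pathways in which KEGG places chemokines were listed through other genes. Cytokine-cytokine receptor interaction had 1 called gene of 293, and NF-kappa B signaling pathway (1 of 102) and TNF signaling pathway (1 of 114) were listed through TRAF1, an adaptor of TNF receptors that was also called in the GO table. The absence of the chemokines there does not show that silencing left them unchanged, because no level or interval is given for them. The tables share the NC-L-L samples and draw on different annotation, so their gene numbers were not set against each other.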

How the data were processed

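The authors prepared TruSeq libraries, sequenced them to 150 bp and called differentially expressed genes by false discovery rate, fold change and p value, with a limit on the false discovery rate far looser than is customary. Which aligner, build and read counter they used is not given in the sources used here. The deposited tables give, for each GO term or KEGG pathway, the count of called genes, the count of annotated genes, both totals and the symbols of the called genes. They also hold a p-value, a q-value and an enrichment score of the authors' own comparison, none of which was used, and 0 columns of values per sample. Groups were taken from the sample labels. The members and the gene lists were chosen with earlier results of these data known.

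Terms were found by exact match of symbols, with Python 3.11.15. Genes named are the 7 chemokines, other called genes on the ligand and receptor lists, the 10 called genes with the highest mean Jaccard index, and the called genes of discussed terms that hold at most 8. Genes of the other fixed lists, genes beside the chemokines on the chromosome, ITGAL, IKZF1, LYVE1, ESM1, TNFAIP3, TRAF1, CCL3L1, CCL3L3 and CCL4L1 were named after the values were seen. A term held by CCL3 is not reported here. Promoters are from RefSeq (GRCh38.p14), 250 bases before to 50 after the start. The entry farthest upstream was taken where a gene has several, and the letters of all motif patterns, the looser kappaB consensus included, were written after promoters had been seen. Transcripts and positions are from GENCODE v29 (GRCh38). Coding and promoter sequences were aligned globally with Biopython 1.88 (match 2, mismatch -1, gap opening -5, gap extension -0.5), and windows were looked up on both strands. The matching code was tested on simulated data. Plots were made with matplotlib 3.10.9. Alternatives tried were GO biological processes only, terms with at least 3 called genes, terms with at most 500 annotated genes, older symbols, a looser kappaB consensus, bases before the start only, windows of 100 bases and, chosen after the data were seen, terms with more than 1 called gene, coding identity over the shorter sequence and all annotated transcripts in the search for shared stretches.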

Additional observations from a re-analysis of the deposited data

How the results depend on the processing

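No paired analysis was possible because neither table has values for single samples, and for the same reason replicates could not be left out and depth is unknown. Protein identity between the chemokines was not run, and identity of coding bases, chosen after the data were seen, took its place. The 127 terms with a chemokine became 54 where a term needed at least 3 called genes and 75 where it needed more than 1, the latter chosen after the data were seen. Terms held by 1 chemokine fell in number from 85 to 19 with at least 3 called genes, and the median Jaccard index went from 0.245 to 0.375. These shifts follow from the construction, which drops terms with few called genes, whatever their number of annotated genes. With biological processes only, the terms holding all 7 became 3 in place of 6, since the others are components or functions. CXCL2 and CXCL3 were the most alike pair with biological processes only, with at least 3 called genes and with at most 500 annotated genes. The order of the 7 by number of terms was also the same, except that CCL20 and CXCL1 tied at 20 with at least 3 called genes. There CXCL1 and CXCL2 ranked 4 and CXCL1 and CXCL3 ranked 8 of 21 pairs, in place of 2 and 3. Of the 10 genes most like the chemokines, 5 remained with biological processes only, 8 with at least 3 called genes and 5 with at most 500 annotated genes. Of the 21 alternatives for terms of single chemokines 6 moved by over 1.5 times, and of the 63 for single Jaccard indices 24 did. Older symbols added 0 terms and 0 pathways, and windows of 100 bases gave 0 shared windows, as did 150. Of the 21 coding identities 8 moved by 5 percentage points or more over the shorter sequence. Promoters with a kappaB match were 4, or 5 with the looser consensus and 4 before the start only.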

Other observations

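The 3′ UTRs of the chemokines were read for AU-rich letters, a choice made after the values were seen. AU-rich elements are known to mark many cytokine mRNAs for rapid decay. The nonamer TTATTTATT was found in the 3′ UTR of 4 of the 7 genes in GENCODE v29, with 5 copies in CXCL2, 3 in CXCL1, 1 in CXCL3 and 1 in CXCL8, overlapping copies counted. CCL2, CCL3 and CCL20 held 0. Of 18198 genes with a 3′ UTR of at least 50 bases 7.4% held it, of 5975 genes with a 3′ UTR within the length range of those of the chemokines 4.4%, and of 81 other called genes 14.8%. The pentamer ATTTA occurred 13.9 times per kb in CXCL2, 10.4 in CXCL3, 9.6 in CCL3, 7.2 in CXCL8, 7.1 in CXCL1, 6.7 in CCL20 and 2.7 in CCL2. The median was 1.44 per kb over all genes, 1.52 over genes with a 3′ UTR in that length range and 1.83 over the other called genes. The first nonamer is shown in capitals with the 10 bases on either side, from CXCL2 with the most copies and from CXCL8.
CXCL2: agtcttctatTTATTTATTtatttattta
CXCL8: atgtaaagtaTTATTTATTtgaatctaca
The stability of these mRNAs was not measured, and the letters are a description of the annotated transcripts only.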
